A study of Mus musculus with 17 samples.

Results

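The 8 regenerative, fetal-like epithelial genes described here were Ly6a, Ly6e, Clu, Anxa1, Il33, Areg, Ereg and Ccn2 (also called Ctgf), the rows of the count tables whose Ensembl identifiers carry these mouse symbols, 8 of 55421 genes. The rule used symbols and no measured value, although the genes were chosen with earlier results of these data known. All 8 passed the filter on low counts in every comparison.

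RNA was sequenced from colorectal tumors of C57BL/6 mice. Tyk2Δ/Δ mice (3 libraries) carry a germline deletion of Tyk2, first made with a CMV-cre deleter strain. Tyk2 is a Janus kinase that relays type I interferon and IL12 signals. Tyk2+/+ mice from the same crosses (3 libraries) were the controls. Tyk2ΔIEC mice (4 libraries) are Tyk2fl/fl mice with Villin-cre, which deletes Tyk2 in intestinal epithelial cells and leaves it in stromal and immune cells, and cre-negative Tyk2fl/fl mice (7 libraries) were theirs. All 4 genotypes received azoxymethane, a mutagen, by injection and 3 courses of dextran sulfate sodium, which damages the colon epithelium, in the drinking water, so every library comes from tumors that grew after injury. The age of the mice is not given in the sources used here. The labels speak of single tumors and a legend of the study of pooled tumor samples, and nothing tells whether each library is a separate mouse, so the p-values measure the spread between these libraries, which may be technical.

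When the colon epithelium is injured, surviving cells can return for a time to a state that resembles the fetal gut. Yap and Taz, the effectors of the Hippo pathway, enter the nucleus, bind TEAD factors and switch on genes such as Ccn2, Clu, Areg and Ereg, while Ly6a (Sca-1) marks the repairing cells in mice. Ly6a and Ly6e are in addition induced by interferons. Tyk2 serves the type I interferon pathway, while the study states that IFNγ does not activate it. The comparison therefore set the interferon-sensitive pair Ly6a and Ly6e against the Yap-linked genes over the 4 genotypes. In bulk tumor RNA, fewer cells that express a gene and less RNA per cell cannot be told apart.

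Libraries held 19922606 to 21707373 counts on genes in Tyk2Δ/Δ, 19789347 to 21318077 in Tyk2+/+, 19129696 to 20334948 in Tyk2ΔIEC and 29777763 to 35427965 in Tyk2fl/fl tumors. Every Tyk2fl/fl library was deeper than every Tyk2ΔIEC library, so depth and genotype cannot be told apart in the epithelial experiment. Levels are CPM (reads of a gene scaled to a fixed library total) after TMM scaling over all 17 libraries. Tyk2 itself had 58.1 to 59.1 CPM in Tyk2Δ/Δ and 55.5 to 57.7 CPM in Tyk2+/+ tumors, and 51.8 to 55.8 CPM in Tyk2ΔIEC and 42.5 to 54.2 CPM in Tyk2fl/fl tumors. Counts over the whole gene do not check the labels, because the deposited counts are not split by exon and the floxed stretch covers only part of the gene, exon 3 with the start codon included. Tyk2fl/fl replicates 1 to 3 stood apart by 40656 to 45446 counts of Xist, made from the inactive X chromosome, against 2 to 106 in the other 14 libraries. Tyk2ΔIEC replicate 1 stood apart by a sum of 1383 CPM over 8 smooth muscle markers, against 181 to 224 CPM in the other 3 libraries of its genotype. None of 10 epithelial markers passed the test in any of the 4 comparisons, and their summed level was 10178 to 10851 CPM in Tyk2Δ/Δ, 9410 to 11347 CPM in Tyk2+/+, 8990 to 11673 CPM in Tyk2ΔIEC and 8079 to 12912 CPM in Tyk2fl/fl tumors.

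Scaled to transcript length, Ly6a and Ly6e were the most abundant of the 8 genes. Ly6a averaged 480 CPM per kb of exon over the 17 libraries and Ly6e 326 CPM per kb. Anxa1 (200 CPM per kb) and Clu (122 CPM per kb) followed. The secreted factors were scarcer, with 29.2 CPM per kb for Areg, 19.8 for Il33, 18.1 for Ccn2 and 7.29 for Ereg. The lowest count of any of the 8 genes in any library was 287, for Ereg, so none was limited by zero counts.

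**Figure D1:**
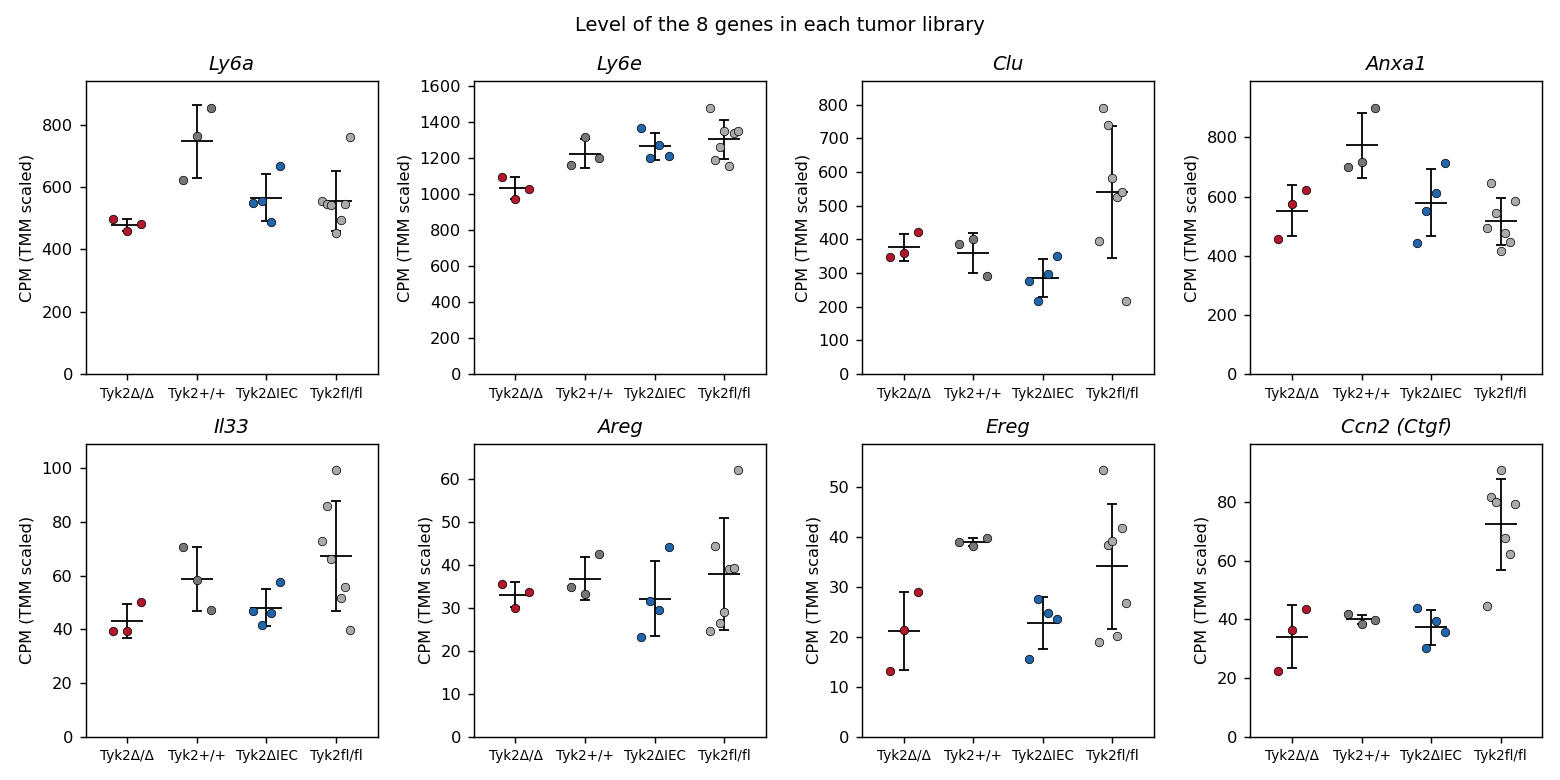
CPM (TMM scaled, linear axis from 0) of the 8 genes in each library, with 1 panel per gene. Points are libraries of Tyk2Δ/Δ (n = 3), Tyk2+/+ (n = 3), Tyk2ΔIEC (n = 4) and Tyk2fl/fl (n = 7) tumors, and bars are the mean ± SD. Ly6a stood highest in Tyk2+/+ (mean 747 CPM) and Ccn2 in Tyk2fl/fl tumors (mean 72.4 CPM), where all 7 libraries (44.7 to 90.8 CPM) lay above every library of the other genotypes.

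Germline loss of Tyk2 went with less Ly6a, and no other of the 8 genes passed the test. A gene passes at an adjusted p under 0.05 in edgeR's quasi-likelihood test over all genes. Of the 8 genes 1 was lower and 0 were higher in Tyk2Δ/Δ than in Tyk2+/+ tumors, where 2.13% of 16179 genes tested were lower and 0.668% higher. The log2 fold change was negative for 7 of the 8 genes, with a median of -0.35, against 0.0040 over all genes tested. The libraries of both genotypes did not overlap for 4 of the 8 genes, all lower in Tyk2Δ/Δ tumors (Ly6a, Ly6e, Anxa1 and Ereg), against a background of 14.0% of genes. At an unadjusted p under 0.05 there were 5 genes, and DESeq2 called 4 (Ly6a, Ly6e, Anxa1 and Ereg). None of the 8 changed by more than 2-fold.

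Ly6a encodes a GPI-anchored surface protein of the Ly6 family that interferons induce and that marks repairing colon epithelium in mice as well as several blood and vessel cells. It lies at chr15:74994877-74998031 on the minus strand of GRCm38. Ly6a had 497, 458 and 482 CPM in Tyk2Δ/Δ tumors and 621, 765 and 855 CPM in Tyk2+/+ tumors. All Tyk2Δ/Δ libraries lay close together and below all Tyk2+/+ libraries, which spread more widely. The Tyk2Δ/Δ libraries were not below those of the other control, since they lay within the range of Tyk2fl/fl tumors (452 to 760 CPM). Ly6a fell by 0.65 on the log2 scale (0.639-fold, standard error 0.11, adjusted p = 0.0290). The call rested on single libraries, because the adjusted p was 0.0765, 0.132 and 0.0665 without Tyk2Δ/Δ replicates 1, 2 and 3 and 0.0978 without Tyk2+/+ replicate 3, while the log2 fold change stayed between -0.76 and -0.54.

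In tumors with epithelial loss alone Ly6a did not pass the test. It had 550, 556, 487 and 668 CPM in Tyk2ΔIEC tumors and 452 to 760 CPM (median 544) in Tyk2fl/fl tumors, ranges that overlap throughout. The log2 fold change was 0.024 with a standard error of 0.13 (adjusted p = 0.918), and its sign turned under some settings. The highest Tyk2fl/fl value was that of replicate 7, and the other 6 lay at or below 554 CPM. The difference between the 2 fold changes, tested over all 17 libraries, was -0.66 (standard error 0.20, adjusted p = 0.0492), the only one of the 8 genes past this test (1 lower, 0 higher, against 5.23% lower and 2.73% higher of 17252 genes). It lay at the threshold. Its adjusted p was 0.0173 with DESeq2, 0.0510 with a filter of 1 CPM and 0.0724 without a filter. It was 0.0063 without Tyk2fl/fl replicate 7 and 0.0344 without Tyk2+/+ replicate 1, and without each of the other 15 libraries it was above 0.05, at most 0.167 without Tyk2+/+ replicate 3.

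Ly6e, a related GPI-anchored protein at chr15:74955051-74959905 that interferons also induce, showed a narrower spread. Ly6e had 1098, 974 and 1031 CPM in Tyk2Δ/Δ tumors and 1161, 1319 and 1201 CPM in Tyk2+/+ tumors. These libraries did not overlap either, yet the difference did not pass the test (log2 fold change -0.25, standard error 0.083, adjusted p = 0.129). In Tyk2ΔIEC tumors Ly6e had 1371, 1204, 1276 and 1214 CPM, against 1159 to 1482 CPM (median 1341) in Tyk2fl/fl tumors (log2 fold change -0.043, standard error 0.080, adjusted p = 0.741). The Tyk2Δ/Δ tumors thus held the lowest Ly6e of the 4 genotypes, with every library below every other library. The fold changes of Ly6e did not pass the test of their difference (-0.20, standard error 0.12, adjusted p = 0.310).

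Of the other Ly6 genes of the chromosome 15 cluster, 15 were found in the tables and 7 had enough counts to be tested in the germline experiment, where 1 was lower and 0 higher. It was Ly6c1, a marker of monocytes and vessel cells, with 25.0 CPM in Tyk2Δ/Δ and 51.5 CPM in Tyk2+/+ tumors (log2 fold change -1.05, standard error 0.19, adjusted p = 0.0318). Ly6c2, its near copy, averaged 0.563 CPM in Tyk2Δ/Δ and 1.39 CPM in Tyk2+/+ tumors and did not pass (adjusted p = 0.146). Ly6a and the Ly6c genes are close in sequence, and reads that align to more than 1 of them are not counted by STAR, so their levels carry an uncertainty that was not tested. In the epithelial experiment 1 of 9 tested was higher, Psca, a stomach and bladder epithelium antigen, at 14.4 CPM in Tyk2ΔIEC and 0.586 CPM in Tyk2fl/fl tumors (log2 fold change 4.60, standard error 1.02, adjusted p = 0.0098). Psca was also higher in Tyk2+/+ than in Tyk2fl/fl tumors (log2 fold change 3.70, standard error 1.15, adjusted p = 0.044).

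The size of the Ly6a and Ly6e differences can be read beside a list of 20 type I interferon-stimulated genes. This list was chosen with earlier results of these data known. The study had already named Ifit1, Ifit2, Ifit3, Ifi44 and Oas3 as lower in Tyk2Δ/Δ and higher in Tyk2ΔIEC tumors, so the list is no independent yardstick. In Tyk2Δ/Δ tumors 19 of the 20 were lower than in Tyk2+/+ tumors (2.13% of all genes tested), with a median log2 fold change of -1.78. In Tyk2ΔIEC tumors 14 were higher than in Tyk2fl/fl tumors (10.2% of all genes tested), with a median of 0.66. Bst2, a viral tethering protein, averaged 13.0 CPM in Tyk2Δ/Δ and 39.9 CPM in Tyk2+/+ tumors (log2 fold change -1.62, standard error 0.11, adjusted p = 0.00085). Ifit2, which blocks translation of viral RNA, averaged 86.5 CPM in Tyk2ΔIEC and 27.0 CPM in Tyk2fl/fl tumors (log2 fold change 1.68, standard error 0.21, adjusted p = 0.0008). Ly6a moved less than the median gene of the list in the germline experiment, and its log2 fold change of 0.024 in the epithelial experiment lay near the lower end of the list, none of whose 20 genes was below 0.

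**Figure D2:**
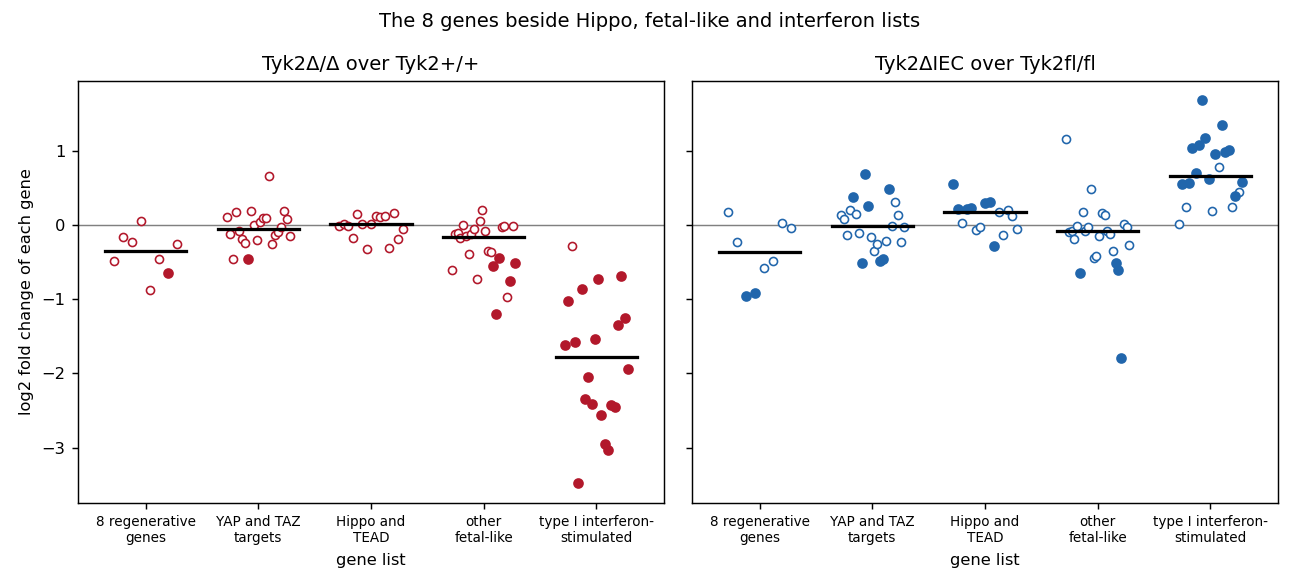
Log2 fold change of each gene (points) of the 8 genes and 4 other lists, at left for Tyk2Δ/Δ over Tyk2+/+ and at right for Tyk2ΔIEC over Tyk2fl/fl tumors, with black lines at the median of each list. Filled points pass the test. The interferon-stimulated genes lay at a median of -1.78 in the germline and 0.66 in the epithelial experiment, whereas the 8 genes lay at -0.35 and -0.36 and the Yap and Taz targets at -0.056 and -0.018.

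Markers of some other cells that can carry Ly6a also fell in the germline experiment, whereas those of endothelial cells did not. Of 6 T and NK cell markers tested (10 listed) 4 were lower in Tyk2Δ/Δ tumors, and the summed level of the list was 6.75 to 9.21 CPM in Tyk2Δ/Δ and 16.7 to 25.0 CPM in Tyk2+/+ tumors. B cell markers summed to 1.09 to 1.90 CPM in Tyk2Δ/Δ and 4.26 to 59.4 CPM in Tyk2+/+ tumors, and the 3 tested had log2 fold changes of -3.15 (Cd79b, adjusted p = 0.065), -3.32 (Cd79a, 0.074) and -4.78 (Pax5, 0.083) without passing. In Tyk2+/+ replicate 3, the library of its genotype with the most Ly6a, the T and NK, B cell and interferon sums were the highest of the 3 Tyk2+/+ libraries, and the macrophage and dendritic cell sum (219 CPM) and the mast cell sum (53.9 CPM) the lowest. In Tyk2fl/fl replicate 7, with the most Ly6a of its genotype, B cell markers summed to 1.19 CPM and the interferon list to 542 CPM, the median of that genotype. Its neutrophil (289 CPM) and epithelial (12912 CPM) sums were the highest of that genotype, and its T and NK sum was 16.0 CPM. Its macrophage and dendritic cell (223 CPM) and mast cell (41.5 CPM) sums lay below the medians. Tyk2+/+ replicate 3 had the highest neutrophil (144 CPM) and epithelial (11347 CPM) sums of its genotype too. Of 8 smooth muscle markers 5 were lower in Tyk2Δ/Δ tumors (133 to 208 CPM in Tyk2Δ/Δ and 266 to 460 CPM in Tyk2+/+ tumors, summed). In both experiments 0 of 7 endothelial and 0 of 6 mast cell markers passed. In the germline experiment the endothelial markers had a median log2 fold change of 0.37, with 0 of 7 negative. All 8 macrophage and dendritic cell (median -0.28), 6 mast cell (-0.66) and 6 neutrophil markers (-0.59) were negative there. Over all genes tested 2.13% were lower there. Macrophage and dendritic cell markers gave 0 of 8 in the germline experiment and 1 of 8 lower in the epithelial one, B cell markers 0 of 2 in the epithelial one, and enteric neuron and glia markers 0 of 2 in the germline and 1 of 4 lower in the epithelial experiment. No marker of these lists was at 0 in all libraries, and their part in the Ly6a result was not tested. Over the 17 libraries the genes most like Ly6a among 17252, by Pearson's r of log2 CPM, were Klrk1 (r = 0.901), an activating receptor of NK and T cells, Fgr (0.893), a kinase of myeloid cells, Tnfsf13b (0.862), the B cell survival factor BAFF, Ehd4 (0.857) and Ly6c1 (0.856). Those most like Ly6e were Erich3 (0.826), Ifitm3 (0.788), an interferon-induced barrier to virus entry, Grn (0.761), Gm6548 (0.760) and Tapbp (0.756), which loads peptides on MHC class I. Ly6a and Ly6e themselves were less alike (r = 0.292). These values describe libraries that share genotypes and carry no test.

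**Figure D3:**
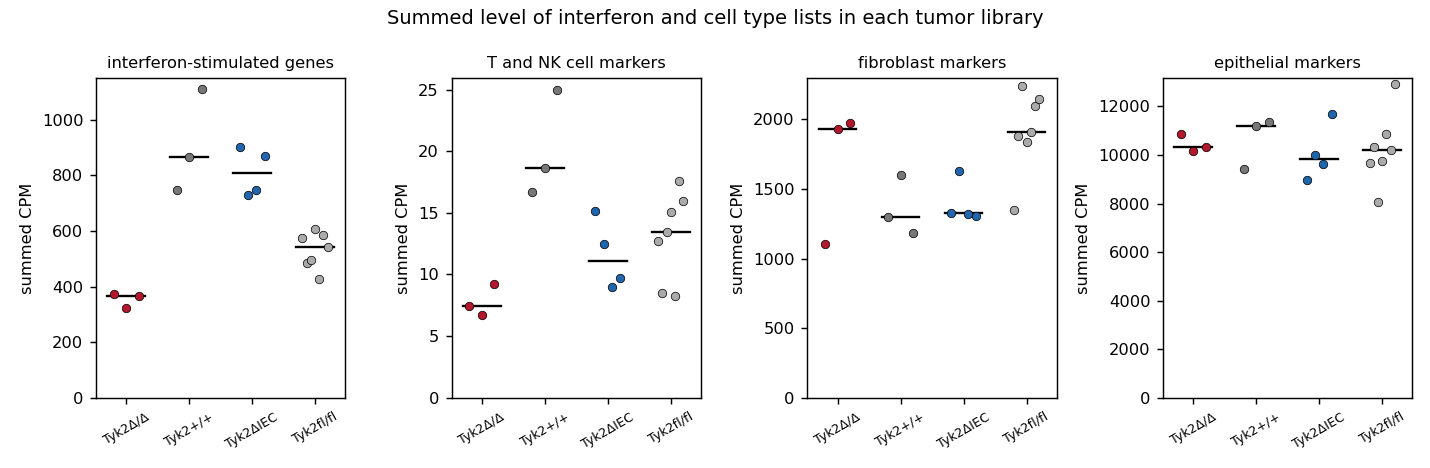
Summed CPM (linear axis from 0) of 4 gene lists in each library, with a line at the median of each genotype. The interferon-stimulated genes of Tyk2Δ/Δ tumors (323 to 375 CPM) lay below those of Tyk2+/+ tumors (747 to 1109 CPM), and those of Tyk2ΔIEC tumors (730 to 901 CPM) above those of Tyk2fl/fl tumors (429 to 607 CPM). Fibroblast markers overlapped between the genotypes, at 1102 to 1972 CPM in Tyk2Δ/Δ, 1186 to 1603 CPM in Tyk2+/+, 1303 to 1626 CPM in Tyk2ΔIEC and 1349 to 2237 CPM in Tyk2fl/fl tumors.

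Of the Yap-linked genes Ccn2 and Clu fell in the epithelial experiment, whereas Areg and Ereg did not pass the test. Of the 8 genes 2 were lower and 0 higher in Tyk2ΔIEC than in Tyk2fl/fl tumors, where 9.71% of 17668 genes tested were lower and 10.2% higher. The log2 fold change was negative for 6 of the 8, with a median of -0.36, against -0.0031 over all genes tested. The libraries of both genotypes did not overlap for 1 gene, Ccn2, which was lower in Tyk2ΔIEC tumors, against a background of 7.81% of genes. At an unadjusted p under 0.05 there were 3 genes, Ccn2, Clu and Il33, and none changed by more than 2-fold.

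Ccn2, the gene of connective tissue growth factor at chr10:24595442-24598683, is among the most widely used targets of Yap and Taz and is made by fibroblasts and vessel cells as well as by epithelium. Ccn2 had 43.9, 30.1, 39.5 and 35.7 CPM in Tyk2ΔIEC tumors and 44.7 to 90.8 CPM (median 79.5) in Tyk2fl/fl tumors. The lowest Tyk2fl/fl value was that of replicate 1, just above the highest Tyk2ΔIEC value, and the other 6 lay at or above 62.3 CPM. Ccn2 fell by 0.96 on the log2 scale (0.516-fold, standard error 0.17, adjusted p = 0.0034). Without each library in turn the adjusted p was 0.00064 to 0.016. With Tyk2fl/fl replicates 5 to 7 as the only controls it was 0.0039. These replicates had few counts of Xist, and so did replicate 4, which that setting also left out.

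In Tyk2Δ/Δ tumors Ccn2 had 22.4, 36.5 and 43.5 CPM, against 41.7, 38.6 and 39.7 CPM in Tyk2+/+ tumors, with overlap (log2 fold change -0.24, standard error 0.20, adjusted p = 0.525). The fold changes of both experiments were not shown to differ (difference 0.73, standard error 0.29, adjusted p = 0.142, and 0.0419 without Tyk2fl/fl replicate 1). Ccn2 averaged 34.1 ± 10.7 CPM in Tyk2Δ/Δ (SD, n = 3), 40.0 ± 1.62 CPM in Tyk2+/+ (n = 3), 37.3 ± 5.84 CPM in Tyk2ΔIEC (n = 4) and 72.4 ± 15.4 CPM in Tyk2fl/fl tumors (n = 7), and the libraries of the first 3 of these genotypes overlapped. Tyk2+/+ tumors, whose Tyk2 is intact, had less Ccn2 than Tyk2fl/fl tumors (log2 fold change -0.86, standard error 0.20, adjusted p = 0.013, and 0.0718 without Tyk2+/+ replicate 3). The 2 control genotypes come from separate experiments, so breeding and sequencing depth cannot be told apart from the floxed allele there. Depth also separates Tyk2ΔIEC from Tyk2fl/fl libraries, and its part in the calls of the epithelial experiment was not tested.

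Fibroblast markers were lower where Ccn2 was lower in the epithelial experiment and not in the germline one. In Tyk2ΔIEC tumors 6 of 10 fibroblast markers were lower than in Tyk2fl/fl tumors and 0 higher, among them Lum (log2 fold change -1.19, standard error 0.23, adjusted p = 0.0054), Dcn (-0.71, 0.15 and 0.0092), both matrix proteoglycans, and Col1a1 (-0.64, 0.14 and 0.0093), a chain of type I collagen. Over all genes tested 9.71% were lower and 10.2% higher in that comparison. The summed level of the fibroblast markers was 1303 to 1626 CPM in Tyk2ΔIEC and 1349 to 2237 CPM in Tyk2fl/fl tumors. In Tyk2Δ/Δ over Tyk2+/+ tumors 0 of the 10 fibroblast markers passed and their median log2 fold change was 0.28, against -0.24 for Ccn2. The library with the least Ccn2 had the lowest sum in Tyk2Δ/Δ (replicate 1, 1102 CPM) and Tyk2fl/fl tumors (replicate 1, 1349 CPM), and the highest sum in Tyk2+/+ (replicate 2, 1603 CPM) and Tyk2ΔIEC tumors (replicate 2, 1626 CPM). Ccn2 ran from 38.6 to 41.7 CPM in Tyk2+/+ and from 30.1 to 43.9 CPM in Tyk2ΔIEC libraries. Fibroblast markers were lower in Tyk2+/+ than in Tyk2fl/fl tumors too (4 of 10 lower, 0 higher, against 5.49% lower and 7.37% higher of all genes tested). No fibroblast marker was at 0 in all libraries, and their part in the Ccn2 result was not tested. The genes most like Ccn2 over the 17 libraries were S1pr1 (r = 0.918), a lipid receptor of vessel and immune cells, Ss18 (0.915), a chromatin factor, Fbln5 (0.914), an elastic fibre protein, Eif3j2 (0.908) and Cd63-ps (0.898).

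Clu encodes clusterin, a secreted chaperone that marks the Yap-dependent revival stem cells of the mouse gut (chr14:65968483-65981547). Clu had 277, 217, 297 and 352 CPM in Tyk2ΔIEC tumors and 216 to 791 CPM (median 540) in Tyk2fl/fl tumors. Of the 7 Tyk2fl/fl libraries 6 lay at 395 CPM or above and replicate 7, at 216 CPM, below all Tyk2ΔIEC libraries. Clu fell by 0.92 on the log2 scale (0.528-fold, standard error 0.28, adjusted p = 0.037). The call was strengthened without Tyk2fl/fl replicate 7 (adjusted p = 0.0040) and lost without Tyk2ΔIEC replicates 1, 2 or 3 (0.0745, 0.112 and 0.0852), without Tyk2fl/fl replicates 2, 3, 4 or 6 (0.0590, 0.0552, 0.0570 and 0.0539), without the Xist-bearing Tyk2fl/fl replicates 1 to 3 (0.0886) and with replicates 5 to 7 as the only controls (0.1795). In Tyk2Δ/Δ tumors Clu had 348, 358 and 423 CPM and in Tyk2+/+ tumors 385, 402 and 292 CPM (log2 fold change 0.059, standard error 0.13, adjusted p = 0.826). The fold changes of both experiments were not shown to differ (difference 0.99, standard error 0.41, adjusted p = 0.147, and 0.0192 without Tyk2fl/fl replicate 7).

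**Figure D4:**
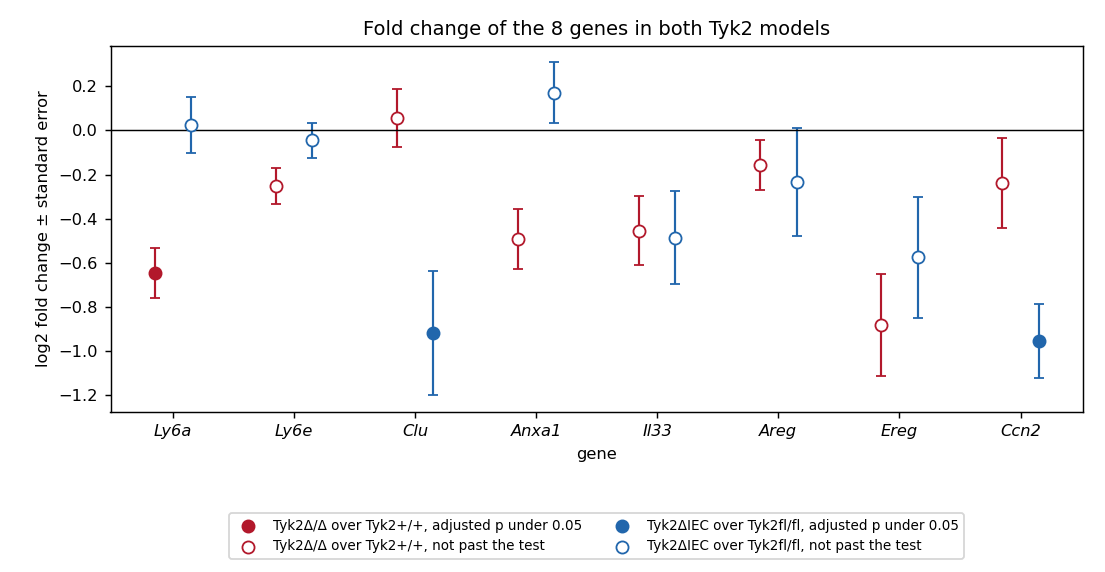
Log2 fold change ± standard error of the 8 genes for Tyk2Δ/Δ over Tyk2+/+ (red) and Tyk2ΔIEC over Tyk2fl/fl tumors (blue), with filled points for an adjusted p under 0.05. Ly6a passed in the germline experiment alone, at -0.65, and Clu and Ccn2 in the epithelial experiment alone, at -0.92 and -0.96, although of these 3 only the Ly6a changes passed the test of their difference between experiments.

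The wider set of Yap and Taz targets did not follow Ccn2 and Clu in one direction. Of 22 such genes, none of them among the 8, 1 was lower and 0 higher in Tyk2Δ/Δ than in Tyk2+/+ tumors (median log2 fold change -0.056). In Tyk2ΔIEC tumors 3 were lower and 4 higher than in Tyk2fl/fl tumors (median -0.018). Over all genes tested 2.13% were lower and 0.668% higher in the germline, and 9.71% lower and 10.2% higher in the epithelial experiment. Ccn1 (also called Cyr61), the closest relative of Ccn2, was lower in both, with 30.9 CPM in Tyk2Δ/Δ and 42.4 CPM in Tyk2+/+ tumors (log2 fold change -0.46, standard error 0.074, adjusted p = 0.022) and with 36.9 CPM in Tyk2ΔIEC and 52.8 CPM in Tyk2fl/fl tumors (-0.52, 0.17 and 0.0471). Gadd45a, a stress response gene (log2 fold change -0.49, standard error 0.081, adjusted p = 0.0025), and Igfbp3, which binds insulin-like growth factors (-0.46, 0.11 and 0.015), were lower in Tyk2ΔIEC tumors. Myof, a membrane repair protein (0.48, 0.091 and 0.0046), Crim1 (0.69, 0.18 and 0.019), Asap1 (0.38, 0.094 and 0.016) and Dock5 (0.26, 0.075 and 0.031) were higher. In Tyk2+/+ over Tyk2fl/fl tumors 2 of the 22 were lower and 1 higher, against 5.49% lower and 7.37% higher of all genes tested. The 3 targets were Gadd45a (-0.44, 0.091 and 0.0069), Igfbp3 (-0.81, 0.18 and 0.0089) and Myof (0.53, 0.12 and 0.010).

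Of 15 genes of the Hippo pathway and its TEAD factors none passed in the germline experiment. In Tyk2ΔIEC tumors 6 were higher and 1 lower than in Tyk2fl/fl tumors (median log2 fold change 0.18), all by less than 2-fold. Over all genes tested 10.2% were higher and 9.71% lower. Amot, which holds Yap in the cytoplasm, stood at 0.55 on the log2 scale (standard error 0.10, adjusted p = 0.0048), Stk4, the kinase at the head of the pathway, at 0.30 (0.065 and 0.0095), and Tead1, a DNA-binding partner of Yap, at 0.31 (0.071 and 0.012). Tead2 was the one that was lower (-0.29, 0.077 and 0.021). Tyk2+/+ tumors, whose Tyk2 is intact, also differed from Tyk2fl/fl tumors, with 5 of the 15 higher and 1 lower. Over all genes tested 7.37% were higher and 5.49% lower in Tyk2+/+ than in Tyk2fl/fl tumors. Amot stood at 0.34 there (0.10 and 0.034), Stk4 at 0.21 (0.067 and 0.048) and Tead2 at -0.36 (0.087 and 0.014). Tead1 did not pass there (0.11, 0.074 and 0.333). Other CCN genes, of which 4 were tested, had Ccn1 as the only one to pass in either experiment.

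Areg and Ereg, neighbours on chromosome 5, encode amphiregulin and epiregulin, ligands of the EGF receptor that drive regrowth of injured epithelium. Areg (chr5:91139599-91148432) had 35.6, 29.9 and 33.7 CPM in Tyk2Δ/Δ and 34.8, 33.1 and 42.4 CPM in Tyk2+/+ tumors (log2 fold change -0.16, standard error 0.11, adjusted p = 0.440). It had 23.2, 31.7, 29.6 and 44.2 CPM in Tyk2ΔIEC tumors and 24.7 to 62.0 CPM (median 39.0) in Tyk2fl/fl tumors (log2 fold change -0.23, standard error 0.25, adjusted p = 0.541). No pair of neighbours in the order of the 4 genotypes was apart, and the highest value was again that of Tyk2fl/fl replicate 7. The genes most like Areg over the 17 libraries were Lrrfip2 (r = 0.886), Ldha (0.874), which makes lactate, Agpat2 (0.863), Ddrgk1 (0.853) and Rilpl2 (0.852).

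Ereg (chr5:91074622-91093646) had the largest fold change of the 8 genes in the germline experiment without passing the test. It had 13.3, 21.5 and 29.0 CPM in Tyk2Δ/Δ tumors and 39.0, 38.2 and 39.8 CPM in Tyk2+/+ tumors. The Tyk2+/+ libraries were nearly equal, and all Tyk2Δ/Δ libraries lay below them at widely differing levels (log2 fold change -0.88, standard error 0.23, adjusted p = 0.085, and 0.036 without Tyk2Δ/Δ replicate 3). In Tyk2ΔIEC tumors Ereg had 15.5, 27.6, 24.8 and 23.6 CPM, against 19 to 53.4 CPM (median 38.5) in Tyk2fl/fl tumors (log2 fold change -0.58, standard error 0.28, adjusted p = 0.160). The other ligands of the family gave 0 genes of 6 tested past the test in the germline experiment, Hbegf coming nearest (log2 fold change -0.54, standard error 0.15, adjusted p = 0.095), and 1 of 7 in the epithelial experiment, Nrg4, at 1.24 CPM in Tyk2ΔIEC and 0.510 CPM in Tyk2fl/fl tumors (log2 fold change 1.28, standard error 0.37, adjusted p = 0.028). Among 10 genes for EGF receptors and ligand shedding, Erbb2 (log2 fold change 0.41, standard error 0.066, adjusted p = 0.0023) and Erbb3 (0.29, 0.093 and 0.046) were higher in Tyk2ΔIEC than in Tyk2fl/fl tumors, and none passed in the germline experiment.

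Il33, an alarmin of the IL-1 family that damaged epithelium and stroma release, lies at chr19:29925114-29960718. Il33 had 39.3, 39.5 and 50.4 CPM in Tyk2Δ/Δ tumors and 70.8, 58.2 and 47.1 CPM in Tyk2+/+ tumors (log2 fold change -0.45, standard error 0.16, adjusted p = 0.144). It had 46.7, 41.7, 46.1 and 57.8 CPM in Tyk2ΔIEC tumors and 39.7 to 99.2 CPM (median 66.3) in Tyk2fl/fl tumors (log2 fold change -0.49, standard error 0.21, adjusted p = 0.121, and 0.036 without Tyk2fl/fl replicate 7). Both estimates were alike in size, both groups overlapped with their controls, and neither passed. Of the IL-33 receptor and its partners 0 of 7 passed in the germline and 0 of 8 in the epithelial experiment. Il1rl1, the receptor chain ST2, averaged 93.2 CPM in Tyk2Δ/Δ and 145 CPM in Tyk2+/+ tumors (log2 fold change -0.64, standard error 0.16, adjusted p = 0.075).

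The sequences before the start sites of Il33 and Areg are shown because these genes are called Yap-linked or injury-induced and 250 bases upstream of their starts could be read (RefSeq, GRCm38.p6). Searched on both strands were the TEAD letters GGAATG, the interferon response element core GAAANNGAA, the Stat site TTCNNNGAA and, added after the Areg sequence had been seen, the cAMP response element TGACGTCA. Of 32851 promoter windows of this length 12.64% held the TEAD letters, 7.13% the interferon core, 7.02% the Stat site and 1.55% the cAMP element. Capitals mark the matches, and the sequences run 5′ to 3′ on the plus strand.
Il33 first start, chr19:29924863-29925112: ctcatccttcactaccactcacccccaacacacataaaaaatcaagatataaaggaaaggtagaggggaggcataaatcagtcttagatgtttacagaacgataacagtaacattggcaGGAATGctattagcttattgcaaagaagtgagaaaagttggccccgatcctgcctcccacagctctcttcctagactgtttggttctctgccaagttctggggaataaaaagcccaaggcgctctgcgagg
Il33 second start, chr19:29945540-29945789: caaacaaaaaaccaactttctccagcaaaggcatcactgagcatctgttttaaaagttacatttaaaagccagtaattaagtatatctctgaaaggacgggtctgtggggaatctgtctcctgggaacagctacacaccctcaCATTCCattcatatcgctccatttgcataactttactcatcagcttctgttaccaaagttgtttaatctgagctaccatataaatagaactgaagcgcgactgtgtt
Areg, chr5:91139349-91139598: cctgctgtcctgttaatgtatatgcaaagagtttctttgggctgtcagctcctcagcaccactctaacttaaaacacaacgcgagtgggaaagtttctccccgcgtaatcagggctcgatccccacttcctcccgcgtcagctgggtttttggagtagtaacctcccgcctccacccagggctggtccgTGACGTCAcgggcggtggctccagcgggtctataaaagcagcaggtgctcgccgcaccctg
Both Il33 windows held the TEAD letters once, 131 bases before the first start on the plus strand and 107 bases before the second on the minus strand (read as CATTCC). The Areg window held none of the first 3 words and the cAMP element 61 bases before the start. A match is a description of the letters and not evidence of binding. Of the 8 genes 3 had an entry, and the sequence of the third, Anxa1, is not shown. Its window lies inside a longer annotated transcript, and the second Il33 window likewise lies within the annotated Il33 gene. The Anxa1 window also held the TEAD letters once, 236 bases before the start (read as CATTCC).

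Anxa1 encodes annexin A1, a lipid-binding protein that limits inflammation and aids wound closure (chr19:20373428-20390944). It had 457, 576 and 624 CPM in Tyk2Δ/Δ and 701, 718 and 901 CPM in Tyk2+/+ tumors, without overlap (log2 fold change -0.49, standard error 0.14, adjusted p = 0.095). In Tyk2ΔIEC tumors it had 442, 552, 613 and 713 CPM, against 417 to 646 CPM (median 494) in Tyk2fl/fl tumors (log2 fold change 0.17, standard error 0.14, adjusted p = 0.416). The estimates had opposite signs, and their difference did not pass (-0.65, standard error 0.22, adjusted p = 0.082, and 0.039 without Tyk2ΔIEC replicate 1). Among the 8 genes, Anxa1 was the one most like Ly6a over the 17 libraries (r = 0.685). Its receptor genes Fpr1 and Fpr2 averaged at most 1.75 CPM in any genotype and did not pass. Squamous epithelium, which also makes annexin A1, was traced by 7 markers, of which 0 passed in the germline experiment and 1, Krt4, was higher in the epithelial one (13.0 CPM in Tyk2ΔIEC and 3.0 CPM in Tyk2fl/fl tumors, log2 fold change 2.12, standard error 0.25, adjusted p = 0.0006). The summed level of these markers was 82.5 to 353 CPM in Tyk2ΔIEC and 74.4 to 234 CPM in Tyk2fl/fl tumors, and their part in the Anxa1 values was not tested. Krt4 was also higher in Tyk2+/+ than in Tyk2fl/fl tumors (log2 fold change 1.67, standard error 0.30, adjusted p = 0.0031). Genes on the opposite strand overlap Anxa1, Ereg and Ccn2, with at most 53 counts in any library.

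A list of 24 other fetal-like and revival genes had a negative log2 fold change for 21 members in the germline and 18 in the epithelial experiment. In Tyk2Δ/Δ tumors 5 were lower and 0 higher (median log2 fold change -0.16), and in Tyk2ΔIEC tumors 4 were lower and 0 higher (median -0.088). Over all genes tested 2.13% were lower and 0.668% higher in the germline experiment (median 0.0040). In the epithelial experiment 9.71% were lower and 10.2% higher (median -0.0031). Lower in Tyk2Δ/Δ tumors were Ptgs2, the prostaglandin synthase Cox-2 (20.8 CPM in Tyk2Δ/Δ and 47.4 CPM in Tyk2+/+ tumors, log2 fold change -1.20, standard error 0.18, adjusted p = 0.016), S100a10 (-0.44, 0.077 and 0.029), an annexin A2 partner, Sprr1a (-0.76, 0.15 and 0.042), Tnfrsf12a (-0.52, 0.10 and 0.042) and Plaur (-0.56, 0.11 and 0.047). Lower in Tyk2ΔIEC tumors were Spp1, or osteopontin, which macrophages also make (50.7 CPM in Tyk2ΔIEC and 176 CPM in Tyk2fl/fl tumors, log2 fold change -1.79, standard error 0.30, adjusted p = 0.0028), S100a6 (-0.60, 0.14 and 0.011), S100a11 (-0.52, 0.13 and 0.017) and Basp1 (-0.65, 0.17 and 0.021). No gene of the list passed in both experiments. Neutrophil markers, of which 2 of 6 were lower in Tyk2Δ/Δ tumors, summed to 58.7 to 86.0 CPM in Tyk2Δ/Δ and 117 to 144 CPM in Tyk2+/+ tumors, and their part in these values was not tested.

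The 2 genotypes with intact Tyk2 were not interchangeable for these genes. In Tyk2+/+ tumors Anxa1 and Ly6a were higher and Ccn2 lower than in Tyk2fl/fl tumors, so 2 of the 8 genes were higher and 1 lower, against 7.37% higher and 5.49% lower of 17252 genes. The libraries did not overlap for Anxa1, which was higher in Tyk2+/+ tumors (background 7.25%), and for Ccn2, which was lower (background 5.72%). Anxa1 was higher by 0.58 on the log2 scale (standard error 0.15, adjusted p = 0.017, and 0.159 without Tyk2+/+ replicate 3), and Ly6a by 0.43 (standard error 0.13, adjusted p = 0.041). The Ly6a call was lost without 14 of the 17 libraries, with adjusted p-values up to 0.281 without Tyk2+/+ replicate 3, and kept without Tyk2+/+ replicate 1, Tyk2ΔIEC replicate 4 or Tyk2fl/fl replicate 7. Without Tyk2+/+ replicate 3 none of the 8 genes passed, and 345 of all genes did, against 2219 with it. Clu stood at -0.59 on the log2 scale (standard error 0.28, adjusted p = 0.172, and 0.018 without Tyk2fl/fl replicate 7). Type I interferon-stimulated genes also differed between the 2 control genotypes, with 14 of 20 higher in Tyk2+/+ tumors and 0 lower.

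**Figure D5:**
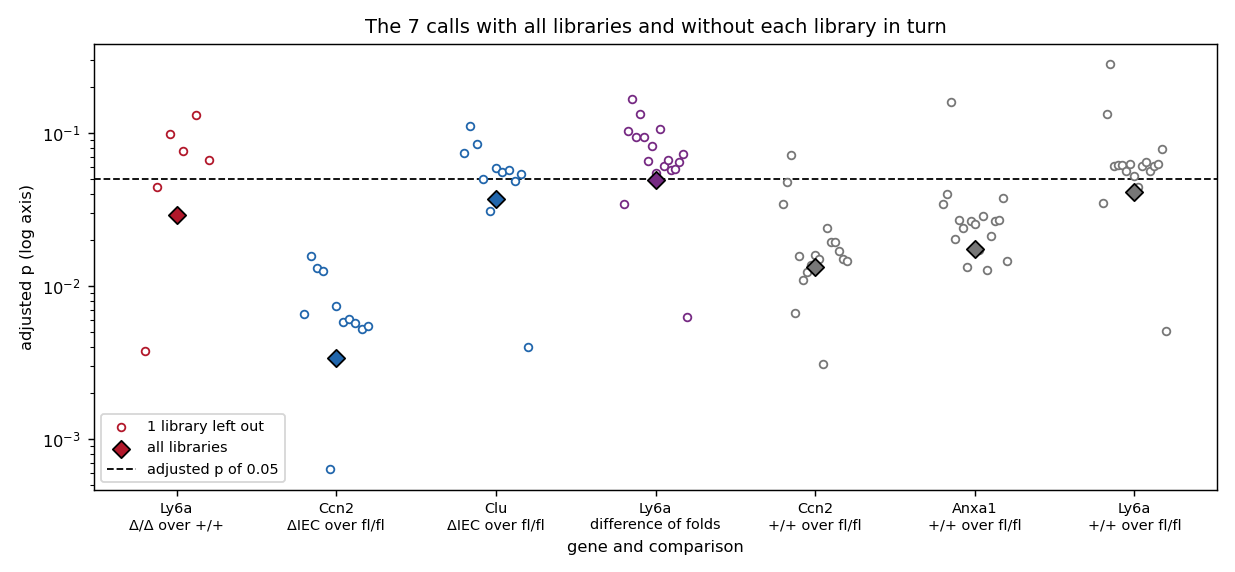
Adjusted p (log axis) of the 7 calls among the 8 genes, with all libraries (diamonds) and without each library in turn (open circles), and a dashed line at 0.05. For Ccn2 in Tyk2ΔIEC over Tyk2fl/fl tumors every circle lay at or below 0.016, whereas Ly6a in Tyk2Δ/Δ over Tyk2+/+ tumors reached 0.132 and Clu in Tyk2ΔIEC over Tyk2fl/fl tumors 0.112.

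Among the 8 genes themselves the libraries did not fall into 1 common pattern. Over the 17 libraries Clu was most like Il33 (r = 0.728) and Ccn2 (r = 0.580). Ly6a was most like Anxa1 (r = 0.685) and Areg (r = 0.512) and had an r near 0 with Ccn2 (-0.072). These values share genotype and library composition and are given as a description.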

How the data were processed

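The authors selected poly(A) RNA, made directional libraries, read 75 bp single ends and counted reads per gene with STAR 2.6.1a on GENCODE release 23. The methods print GRCh38 as build, and the submitters' processing notes GRCm38. The deposited values are raw counts for 55421 genes, and no normalization or filter had been applied. Of the identifiers 55154 matched GENCODE release 21 (GRCm38), the source of symbols, positions and lengths here.

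Counts were filtered with filterByExpr (minimum count 10, total 15) and TMM factors were used. Tests were those of edgeR 4.0.16 (quasi-likelihood F test, Benjamini-Hochberg adjustment, R 4.3.3), with Tyk2Δ/Δ and Tyk2+/+ libraries in 1 fit, Tyk2ΔIEC and Tyk2fl/fl libraries in another and all 17 libraries for the difference of both and for Tyk2+/+ over Tyk2fl/fl. Standard errors come from the fold change and F. Steps were tested on simulated data. The 8 genes and the 21 other lists were chosen with earlier results of these data known. Another gene that the rule covers is not reported here. Named were the 8 genes, up to 3 genes of each list by adjusted p in a comparison (all that passed where the list was close to the 8 genes, as an exception made after the values were seen) and the 5 genes most like Ly6a, Ly6e, Areg and Ccn2 in log2 CPM (prior count 2). Alternatives were DESeq2 1.42.0, limma 3.58.1 voom, other scalings and filters, 1 joint fit, the replicate number as a block, a 2-fold minimum, other Tyk2fl/fl controls and leaving out each library. Figures were drawn with matplotlib.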

Additional observations from a re-analysis of the deposited data

Results flagged for a closer look

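Ly6a had 759.9 CPM in Tyk2fl/fl replicate 7, the highest of 7 libraries, whose gap to the next library took most of the range of its genotype. It was the only such value among 16 tested groups of 4 or 7 libraries (the 8 genes in Tyk2ΔIEC and Tyk2fl/fl tumors), where chance gives about 1 in 20.

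The Ly6a fold changes of both experiments differed by -0.66 on the log2 scale in the fit over all 17 libraries (adjusted p = 0.0492 from edgeR), with -0.65 in Tyk2Δ/Δ over Tyk2+/+ and 0.024 in Tyk2ΔIEC over Tyk2fl/fl tumors.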

How the results depend on the processing

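Of the 8 genes 1 passed in Tyk2Δ/Δ over Tyk2+/+ tumors. With DESeq2 there were 4 and without a low-count filter 3, and leaving out 1 library gave 0 to 1. All genes passing numbered 453, against 1250 with DESeq2, 1020 without the filter and 114 to 822 without 1 library. In Tyk2ΔIEC over Tyk2fl/fl tumors 2 passed, against 1 with limma voom, without Tyk2fl/fl replicates 1 to 3 and with replicates 5 to 7 as the only controls, and 1 to 3 without 1 library (all genes 3515, and 1632 to 3798 without 1 library). For the difference between the experiments 1 passed, against 2 with DESeq2 and 0 with DESeq2 size factors, without a filter, with a filter of 1 CPM, without Tyk2fl/fl replicates 1 to 3 and with replicates 5 to 7 as the only controls, and 0 to 2 without 1 library (all genes 1374, against 868 without a filter, 2401 with replicates 5 to 7 and 584 to 1690 without 1 library). For Tyk2+/+ over Tyk2fl/fl 3 passed, and 0 to 4 without 1 library (all genes 2219, against 1453 without a filter and 345 to 2806 without 1 library). A minimum of 2-fold left 0 in all 4 comparisons.

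Equal replicate numbers did not pair the libraries, since the correlations of their deviations were -0.0817 to -0.0032 in the germline and -0.389 to 0.0777 in the epithelial experiment, and no library in either matched its own number best. With the replicate number as a block 0 of the 8 genes passed in the germline experiment (246 of all genes), 3 in the epithelial one (1181) and 0 for the difference (903). No paired analysis was possible for Tyk2+/+ over Tyk2fl/fl because the block absorbs that contrast.

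Values that were not past the test turned sign as follows, and the cause was not tested. Ly6a in Tyk2ΔIEC over Tyk2fl/fl had log2 fold changes of -0.0030 without a filter, -0.0083 without Tyk2fl/fl replicates 1 to 3 and -0.096 with replicates 5 to 7, and -0.078 to 0.12 without 1 library. Areg had 0.055 there with the block, and -0.20 with it for the difference (-0.073 to 0.29 without 1 library). The difference for Il33 was -0.072 without Tyk2fl/fl replicates 1 to 3 and -0.40 with replicates 5 to 7 (-0.080 to 0.22 without 1 library). In Tyk2+/+ over Tyk2fl/fl Il33 had 0.24 with replicates 5 to 7 and Areg 0.027 with voom (-0.17 to 0.11 without 1 library). Clu in Tyk2Δ/Δ over Tyk2+/+ had -0.072 to 0.15 without 1 library. The germline experiment has 3 libraries per genotype, and every one of the 8 genes had at least 287 counts in each library.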
